A study of Mus musculus with 6 samples.

Results

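The 9 genes described here form the core of the p53 and Arf pathway as it is read from mouse RNA. They were chosen by name, with earlier results of these data known. They include the tumour suppressor Trp53, its inhibitors Mdm2 and Mdm4, and the Ink4 and Arf locus genes Cdkn2a and Cdkn2b. The others are the p53 targets Cdkn1a, Ccng1, Bbc3 and Bax. All 9 were among the 37315 genes with an abundance value, and 8 of them had enough allelic counts for a maternal share. The 9th, Bbc3, had 5 to 17 allelic counts per library, under the minimum of 20.

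RNA-seq compared 3 immortalised B-cell clones, which were derived from F1 mice with 129S1/SvImJ and CAST/EiJ as parent strains. The labels give the sex as female for Abl.2 and Abl.4 and as male for Abl.3, and the file headers call the lines abelson clones. Cells of all lines were controls kept with 1% DMSO, a solvent, and the live cells were taken on day 2. Each line is 1 clone with 2 libraries made as separate library preparations. The p-values thus measure only the spread between preparations within clones, which may be technical. That spread was estimated from all 6 libraries together, so leaving out a library of a line can also change calls for the other lines. Cells without DMSO were not analysed here, and the sex of a line cannot be told apart from the clone.

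The transcription factor p53, the product of Trp53, is stabilised by DNA damage and by oncogene signals, and it switches on genes that stop the cell cycle or start cell death. Mdm2 is the ubiquitin ligase that degrades p53 and is itself a p53 target, and Mdm4 binds p53 and blocks its activity. Cdkn2a encodes 2 unrelated proteins from alternative first exons. Arf binds Mdm2 and so frees p53, while p16 Ink4a, like p15 Ink4b from the adjacent Cdkn2b, inhibits the kinases Cdk4 and Cdk6. In B-cell precursors transformed by the Abelson virus, Arf and p53 are known barriers to growth of the transformed cells.

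Allelic counts ranged from 18362319 to 26881211 per library, and TPM values carry no depth of their own. All 11 B lineage markers had a mean of at least 1 TPM, with sums of 12636 to 14001 TPM per library. Single markers differed between clones: Pax5 was at 246.05 and 206.59 TPM in Abl.2, 56.18 and 63.95 in Abl.3 and 155.86 and 165.36 in Abl.4, Rag1 was highest in Abl.2, and Cd22 was highest in Abl.4. The 8 T lineage markers summed to 1.25 to 2.41 TPM, with Cd3g, Cd4, Thy1 and Trac at 0 in every library, the 5 erythroid markers to 0.46 to 1.54 TPM and the 5 stromal markers to 0 to 0.07 TPM. The 7 myeloid markers summed to 159 and 193 TPM in Abl.2, 75.0 and 97.2 in Abl.3 and 77.9 and 89.4 in Abl.4. Most of that sum was Lyz2, a lysozyme gene, while Adgre1, Elane and Cd14 were at 0. Itgam, an integrin gene in the same list, was highest in Abl.4, at 6.89 and 6.74 TPM against 0.35 to 0.97 in the other 4 libraries. The part of these markers in the differences of Abl.2 and Abl.4 was not tested. In bulk libraries such as these, fewer cells of a type and less RNA per cell cannot be told apart.

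The genes differed in how far their abundance varied between clones. The ratio of the highest to the lowest line mean was 6.02 for Cdkn2b, 3.27 for Cdkn2a and 3.25 for Cdkn1a, then 1.86 for Mdm2, 1.71 for Bbc3 and 1.62 for Bax, and 1.30 for Mdm4, 1.29 for Trp53 and 1.06 for Ccng1. Abundance was tested with limma on log2(TPM + 1), and p-values were adjusted by Benjamini-Hochberg over the 11003 genes that reached a mean of 1 TPM. A gene is called at an adjusted p under 0.05. Mdm2, Cdkn1a and Bax were called in all 3 pairs of lines, and Cdkn2a and Cdkn2b in both pairs with Abl.4. Between Abl.2 and Abl.3, 5 of the 9 genes were called, against 39.8% of all genes. Of the 5, Trp53 and Mdm2 were higher in Abl.2 (25.9% of all genes were called higher) and Cdkn1a, Bbc3 and Bax lower (14% of all genes). Between Abl.2 and Abl.4, 6 of 9 were called, all higher in Abl.2, where 33.5% of all genes were called, 15% higher and 18.4% lower. Between Abl.3 and Abl.4, 6 of 9 were called (38.1% of all genes), with 5 higher in Abl.3 (11.3%) and Mdm2 lower (26.8%). Without 1 library the 5 calls between Abl.2 and Abl.3 became 2 (replicate 1 of Abl.2 or either replicate of Abl.3) or 3 (replicate 2 of Abl.2), and the 6 between Abl.2 and Abl.4 became 2 or 3 (replicate 1 or 2 of Abl.2). The 3 comparisons share their libraries and are not independent of each other. The median difference of all genes was 0.10, -0.03 and -0.15 on this scale, in the order of the pairs above, and that of the 9 genes was -0.14, 0.35 and 0.70.

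**Figure D1:**
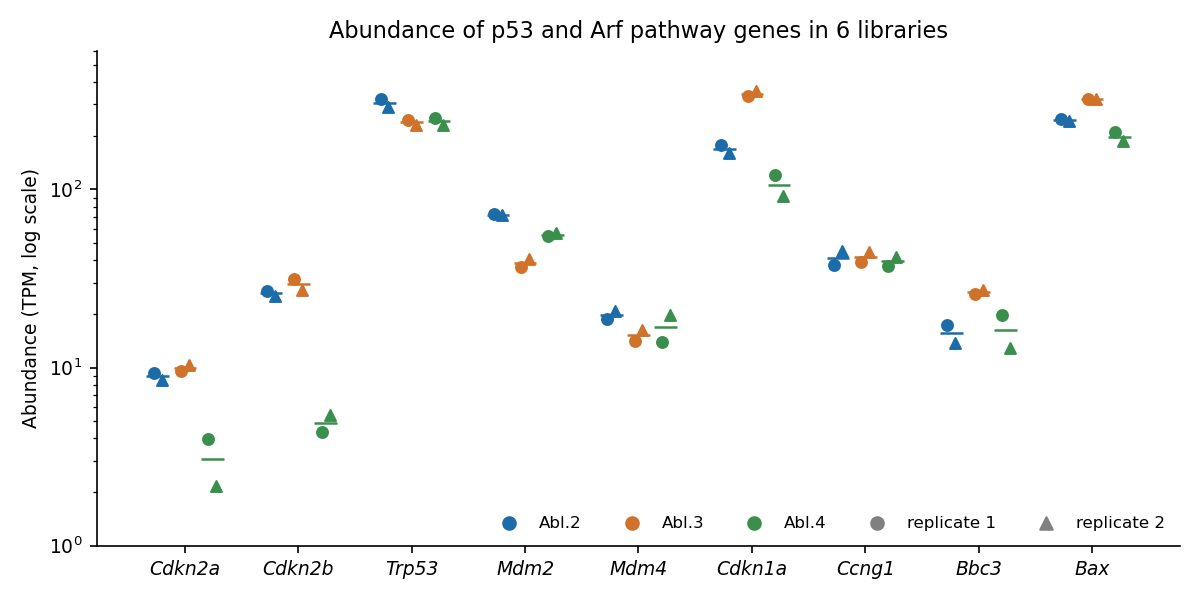
Abundance in TPM (vertical axis, log scale) of the 9 genes in each of the 6 libraries. Colours mark the lines, symbols the replicate and short bars the mean of a line. Cdkn2a and Cdkn2b were lowest in both libraries of Abl.4, and Cdkn1a and Bax were highest in both libraries of Abl.3.

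Cdkn2a (ENSMUSG00000044303) and Cdkn2b (ENSMUSG00000073802) are neighbours on the minus strand of chromosome 4, from 89274471 to 89294653 and from 89306299 to 89311039 in the authors' tables. The gene starts fit mouse build GRCm38. Arf and Ink4a transcripts share exons, so the values of Cdkn2a are the sum of both and cannot separate them. The bases before the starts of the Arf transcript, the Ink4a transcript and Cdkn2b are shown. They precede the annotated starts of the members whose allele shares differed most between lines. Which start a read came from was not measured. They come from RefSeq for build GRCm38.p6, on the minus strand, without bases that lie in annotated exons, and capitals mark CG dinucleotides, the sites of DNA methylation.
Cdkn2a, Arf start, chr4:89294654-89294869: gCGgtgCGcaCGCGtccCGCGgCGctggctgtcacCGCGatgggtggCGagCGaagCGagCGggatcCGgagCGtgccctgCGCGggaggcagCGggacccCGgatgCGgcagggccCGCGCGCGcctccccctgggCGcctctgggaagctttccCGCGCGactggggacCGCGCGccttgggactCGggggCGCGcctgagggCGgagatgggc
Cdkn2a, Ink4a start, chr4:89282193-89282442: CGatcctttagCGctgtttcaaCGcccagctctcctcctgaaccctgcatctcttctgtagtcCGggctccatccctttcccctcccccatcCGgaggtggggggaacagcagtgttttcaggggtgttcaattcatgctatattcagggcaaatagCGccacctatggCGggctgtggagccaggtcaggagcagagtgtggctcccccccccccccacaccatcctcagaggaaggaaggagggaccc
Cdkn2b, chr4:89311040-89311282: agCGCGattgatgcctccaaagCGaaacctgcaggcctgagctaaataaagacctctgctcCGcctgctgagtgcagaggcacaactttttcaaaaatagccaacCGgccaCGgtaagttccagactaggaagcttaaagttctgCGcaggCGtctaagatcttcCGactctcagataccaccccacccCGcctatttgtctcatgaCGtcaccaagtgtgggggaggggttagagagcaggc
In the full windows of 250 bases, the Arf start had 40 CG, the Ink4a start 7 and Cdkn2b 12, against a median of 6 over 32851 RefSeq windows of that length. At least 40 CG were in 1.31% of all windows, at least 12 in 33.5% and at least 7 in 46.3%. DNA methylation was not measured in the libraries analysed here.

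Cdkn2b was at 26.89 and 25.26 TPM in the libraries of Abl.2 and at 31.59 and 27.08 TPM in Abl.3. It was at 4.34 and 5.40 TPM in Abl.4. Both libraries of Abl.4 were thus below all others. The mean was 5.35 times higher in Abl.2 than in Abl.4, a log2 difference of 2.21 ± 0.14 (SE, adjusted p = 7.89e-05, limma). It was 6.02 times higher in Abl.3 than in Abl.4, a log2 difference of 2.37 ± 0.14 (SE, adjusted p = 6.95e-05, limma). Abl.2 and Abl.3 differed by -0.16 ± 0.14 (SE, adjusted p = 0.383, limma), and by -0.27 to -0.053 without 1 library (replicate 2 and replicate 1 of Abl.3). Their libraries did not overlap.

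Cdkn2a had the same order at a lower level. It was at 9.34 and 8.56 TPM in Abl.2, 9.60 and 10.37 TPM in Abl.3, and 3.96 and 2.15 TPM in Abl.4. Again both libraries of Abl.4 were below the other 4. The difference was 1.33 ± 0.22 for Abl.2 over Abl.4 (SE, adjusted p = 0.00499, limma) and 1.47 ± 0.22 for Abl.3 over Abl.4 (SE, adjusted p = 0.00345, limma), on the log2(TPM + 1) scale. With a pseudocount of 5 the former was 0.80 and the latter 0.90, both still called. Between Abl.2 and Abl.3 it was -0.14 ± 0.22 (SE, adjusted p = 0.640, limma), and -0.20 to -0.086 without 1 library (replicate 1 and replicate 2 of Abl.2).

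The clones with similar totals differed in the allele the RNA came from. The maternal share is the maternal count over the counts of both alleles at SNP positions. It was tested by the quasi-likelihood test of edgeR, and p-values were adjusted by Benjamini-Hochberg over the 8702 genes with at least 20 allelic counts in each library. Within a line the test asks whether the alleles are unequal (imbalance), and between lines whether the log2 maternal to paternal ratio differs. Of the 8 genes with a share, imbalance was called for 6 in Abl.2, 5 in Abl.3 and 2 in Abl.4, against 49.1%, 45.1% and 39.9% of all genes. A difference between lines was called for 3 genes in Abl.2 against Abl.3 (28.4% of all genes), 3 in Abl.2 against Abl.4 (22.3%) and 2 in Abl.3 against Abl.4 (16.5%). Without replicate 1 of Abl.2 the 6 became 3. Without replicate 1 of Abl.3 the 5 became 3 and the 2 between Abl.3 and Abl.4 became 0, as they did without replicate 1 of Abl.4, and without replicate 2 of Abl.3 they became 1. The 2 in Abl.4 became 1 without replicate 2 of Abl.2, either replicate of Abl.3 or replicate 2 of Abl.4.

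**Figure D2:**
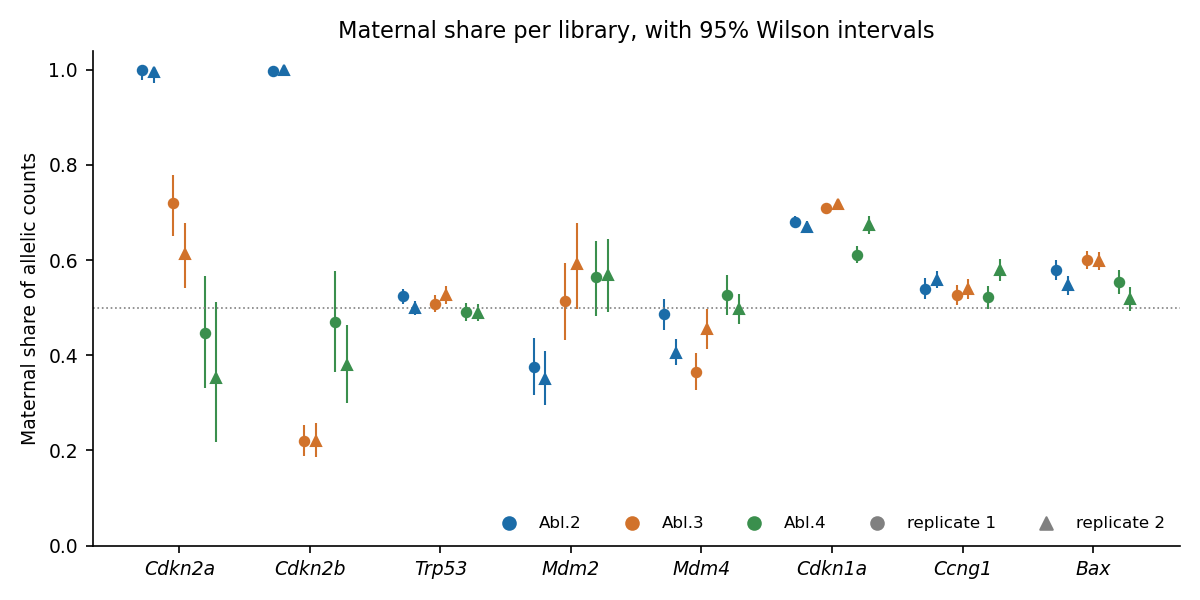
Maternal share of allelic counts (vertical axis, 0 to 1) of the 8 genes with at least 20 allelic counts in each library. Each point is a library with its 95% Wilson interval, colours mark the lines, and the dotted line is an equal share. Cdkn2a and Cdkn2b were near 1 in Abl.2, on opposite sides of 0.5 in Abl.3 and below 0.5 in Abl.4.

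In Abl.2 nearly every count of both genes was maternal. Cdkn2a had 167 maternal and 0 paternal counts in replicate 1, which allows a paternal share of up to 1.80%, and 205 and 1 in replicate 2. Cdkn2b had 579 maternal and 2 paternal counts in replicate 1 and 704 and 1 in replicate 2. The mean maternal share was 0.998 ± 0.0034 for Cdkn2a and 0.998 ± 0.0014 for Cdkn2b (SD, n = 2). These limits, and the intervals below, cover counting error alone: the libraries carry no molecular identifiers, so reads are not independent molecules.

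In Abl.3 the neighbours had opposite majority alleles. Cdkn2a had 136 maternal and 53 paternal counts in replicate 1 and 117 and 74 in replicate 2, a mean share of 0.666 ± 0.076 (SD, n = 2). Cdkn2b had 137 maternal and 485 paternal counts in replicate 1 and 117 and 414 in replicate 2, a mean share of 0.220 ± 0.000058 (SD, n = 2). The 95% Wilson intervals of Cdkn2a were 0.652 to 0.779 and 0.542 to 0.679, and those of Cdkn2b were 0.189 to 0.254 and 0.187 to 0.258. The intervals of the genes thus did not overlap in either library. The log2 maternal to paternal ratio of Cdkn2b was -1.82 ± 0.17 (SE, adjusted p = 1.19e-05, edgeR). That of Cdkn2a was 1.00 ± 0.31 (SE, adjusted p = 0.0235, edgeR). It was 0.66 without replicate 1 of Abl.3 (adjusted p = 0.291) and was also not called with DESeq2 (adjusted p = 0.118).

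In Abl.4, where both genes were least abundant, the alleles were closer to equal. Cdkn2a had 29 maternal and 36 paternal counts in replicate 1 and 13 and 24 in replicate 2, a mean share of 0.399 ± 0.067 (SD, n = 2). Cdkn2b had 38 and 43 counts in replicate 1 and 50 and 82 in replicate 2, a mean share of 0.424 ± 0.064 (SD, n = 2). Neither was called (adjusted p = 0.310 and 0.128, edgeR), and the counts were few, so a moderate imbalance was not detectable at this depth.

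Between lines, the log2 allele ratio of Cdkn2a was higher in Abl.2 than in Abl.3 (adjusted p = 2.31e-05, edgeR) and Abl.4 (adjusted p = 7.20e-06, edgeR). That of Cdkn2b was also higher in Abl.2, with adjusted p = 2.31e-09 against Abl.3 and 3.52e-08 against Abl.4 (edgeR). Both remained called in each alternative that could be run. With 0 to 2 paternal counts per library in Abl.2, the fitted ratios depend on the prior count and are given in the closing section only as fitted. Cdkn2b differed between Abl.3 and Abl.4 by -1.34 ± 0.29 in the log2 ratio (SE, adjusted p = 0.00910, edgeR). That call was lost without replicate 1 of Abl.3 (-1.34, adjusted p = 0.0502) and without replicate 1 of Abl.4 (-1.11, adjusted p = 0.0508). Cdkn2a differed by 1.55 ± 0.50 in that pair and was not called (SE, adjusted p = 0.0652, edgeR).

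Shares and TPM were combined by assigning each library's TPM to the alleles in proportion to the counts. The maternal allele of Cdkn2b then carried 26.0 ± 1.11 TPM for Abl.2, 6.46 ± 0.70 for Abl.3 and 2.04 ± 0.0067 for Abl.4 (SD, n = 2). Its paternal allele carried 0.064 ± 0.040 TPM for Abl.2, 22.9 ± 2.49 for Abl.3 and 2.83 ± 0.74 for Abl.4 (SD, n = 2). The similar totals of Abl.2 and Abl.3 were thus assigned to different parental alleles. For Cdkn2a the maternal allele carried 8.93 ± 0.58, 6.63 ± 0.39 and 1.26 ± 0.72 TPM and the paternal allele 0.021 ± 0.029, 3.35 ± 0.94 and 1.79 ± 0.56 TPM in the same order of lines (SD, n = 2). These products had no test of their own and rest on the assumption that counts at SNPs represent the whole gene.

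**Figure D3:**
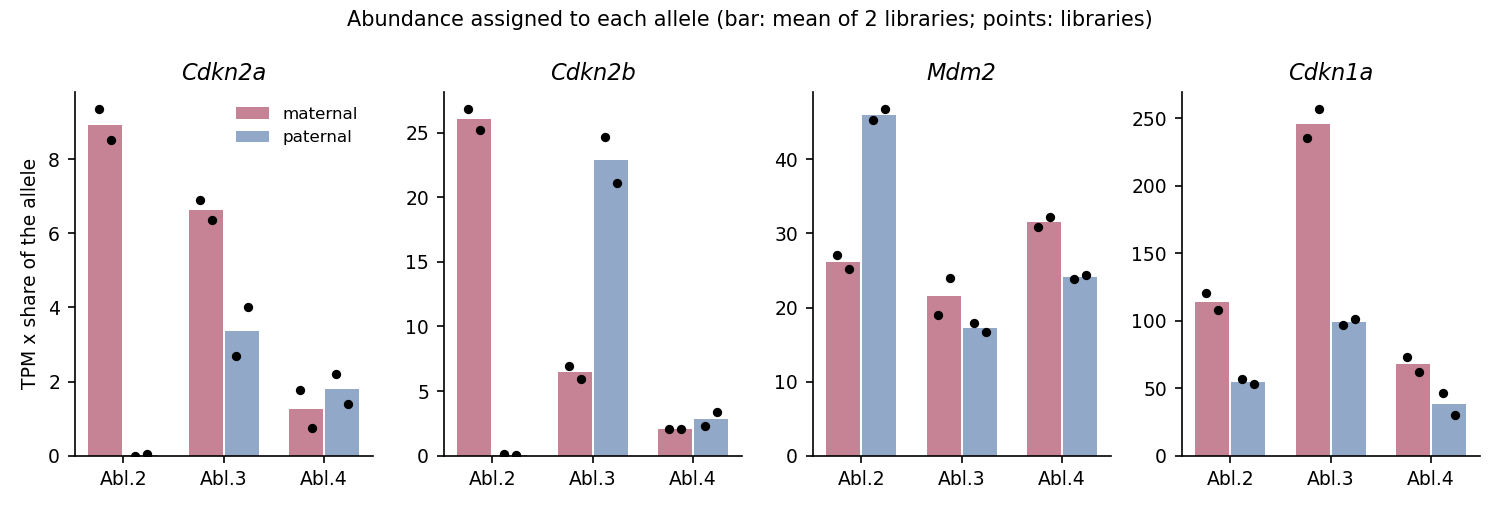
Abundance assigned to the maternal and the paternal allele (vertical axes, TPM times the share of the allele, each panel with its own scale from 0) of Cdkn2a, Cdkn2b, Mdm2 and Cdkn1a. Bars are means of 2 libraries and points are libraries. Cdkn2b was assigned to the maternal allele in Abl.2 (26.0 TPM) and mostly to the paternal allele in Abl.3 (22.9 TPM).

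The shares of these genes in Abl.2 did not stand alone on their chromosome. The median maternal share of the 554 tested genes of chromosome 4 was 0.998 for Abl.2, 0.508 for Abl.3 and 0.502 for Abl.4. Within 5 Mb of Cdkn2a, 15 of 16 genes with enough counts, the members included, had a share of at least 0.9 in Abl.2. The exception was the predicted gene Gm12666, 2879705 bases from Cdkn2b, at 0.270 for Abl.2, 0.235 for Abl.3 and 0.279 for Abl.4. The nearest gene on the other side was Mtap, an enzyme of the methionine salvage pathway, at 89137122 to 89181081 and 93390 bases from Cdkn2a. Its share was 0.998 ± 0.0011 for Abl.2, 0.395 ± 0.031 for Abl.3 and 0.441 ± 0.0047 for Abl.4 (SD, n = 2), and its abundance was 72.5, 65.2 and 55.9 TPM. In Abl.3 the share of Mtap thus lay between those of Cdkn2b and Cdkn2a. The median log2 abundance difference of the 699 genes of chromosome 4 was 0.15 for Abl.2 over Abl.3 and 0.00 for Abl.2 over Abl.4, against 0.08 and -0.04 on the autosomes other than 4 and 10. Whether Abl.2 holds both parental copies of chromosome 4 was not tested.

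**Figure D4:**
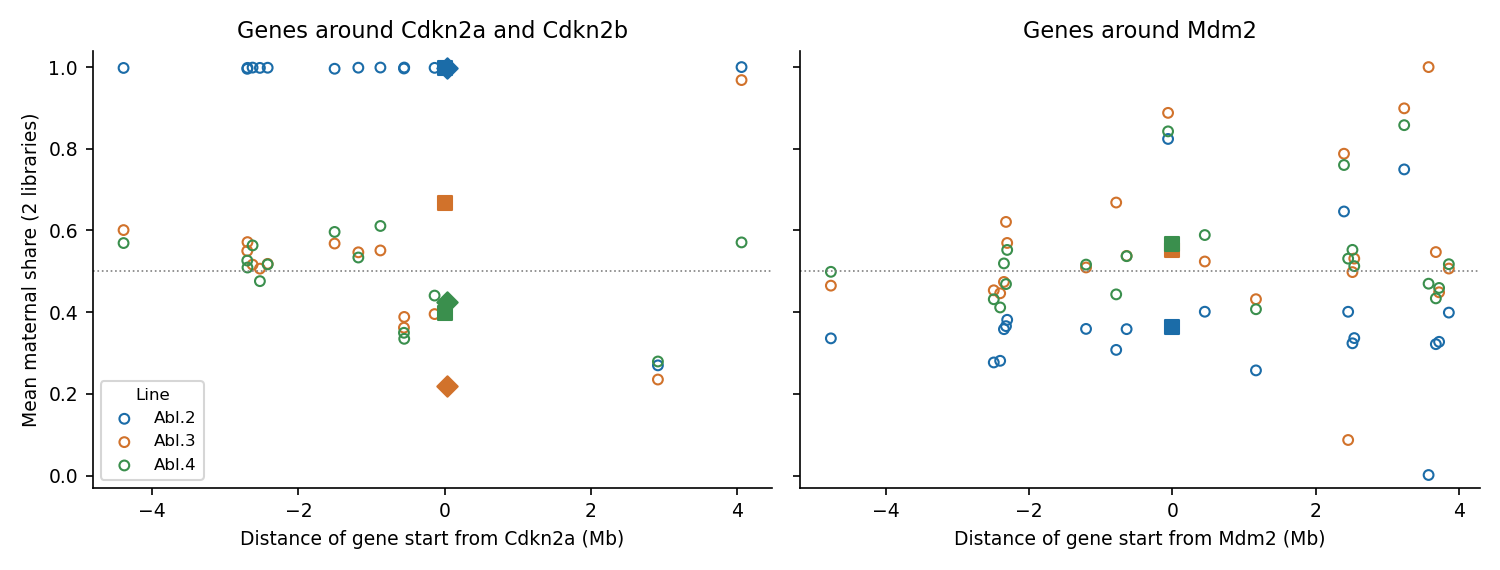
Mean maternal share of 2 libraries (vertical axes) against the distance of the gene start in Mb from Cdkn2a (left) and Mdm2 (right), for genes within 5 Mb. Open circles are neighbouring genes, filled squares are Cdkn2a and Mdm2, filled diamonds are Cdkn2b, and colours mark the lines. In Abl.2, 15 of 16 genes were at 0.9 or above on the left and 18 of 22 were between 0.25 and 0.45 on the right.

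Trp53 (ENSMUSG00000059552, plus strand of chromosome 11, 69580359 to 69591873) was abundant in every clone and was read from both alleles. It was at 322.90 and 290.33 TPM in Abl.2, 245.44 and 230.18 TPM in Abl.3, and 251.89 and 230.07 TPM in Abl.4. The libraries of Abl.2 were above the other 4, and those of Abl.3 and Abl.4 overlapped. The log2 difference was 0.36 ± 0.089 for Abl.2 over Abl.3 (SE, adjusted p = 0.0188, limma) and 0.35 ± 0.089 for Abl.2 over Abl.4 (SE, adjusted p = 0.0261, limma). For Abl.3 over Abl.4 it was -0.02 ± 0.089 (SE, adjusted p = 0.885, limma). The first call was lost without replicate 1 of Abl.2 (0.29, adjusted p = 0.115), without replicate 1 or 2 of Abl.3 (adjusted p = 0.0573 and 0.109) and when summed allelic counts replaced TPM (0.12, adjusted p = 0.325). The second was lost without replicate 1 or 2 of Abl.2 (adjusted p = 0.157 and 0.0544) or replicate 2 of Abl.4 (adjusted p = 0.108).

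The maternal share of Trp53 was 0.511 ± 0.018 for Abl.2, 0.518 ± 0.013 for Abl.3 and 0.490 ± 0.00086 for Abl.4 (SD, n = 2), over 2715 to 4320 counts per library. No imbalance was called in any line (adjusted p = 0.482, 0.275 and 0.565, edgeR), and at unadjusted p the smallest value of the 3 was 0.179. The 95% Wilson intervals of the 6 libraries ran from 0.471 at the lowest to 0.546 at the highest. The fitted log2 allele ratios were 0.06, 0.10 and -0.06 in the order of lines, and that of Abl.3 was 0.16 without its replicate 1 and 0.050 without its replicate 2. That of Abl.2 was -0.0080 without its replicate 1 and 0.14 without its replicate 2. With the null at the allele totals of each library it was -0.054. These values count transcripts and do not show whether the transcript encodes a functional protein.

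Mdm2 (ENSMUSG00000020184, minus strand of chromosome 10, 117688875 to 117710758) was highest in Abl.2 and lowest in Abl.3. It was at 72.47 and 72.01 TPM in Abl.2, 36.84 and 40.70 TPM in Abl.3, and 54.71 and 56.59 TPM in Abl.4. No libraries of different lines overlapped. Abl.2 was 1.86 times Abl.3, a log2 difference of 0.88 ± 0.084 (SE, adjusted p = 0.000504, limma), which was called in each alternative run. Abl.2 over Abl.4 was 0.37 ± 0.084 (SE, adjusted p = 0.0172, limma), and Abl.3 over Abl.4 was -0.51 ± 0.084 (SE, adjusted p = 0.00497, limma). With summed allelic counts in place of TPM, the latter pairs gave 0.44 (adjusted p = 0.134) and -0.19 (adjusted p = 0.527). Abl.2 over Abl.4 was also not called without replicate 1 or 2 of Abl.2 (adjusted p = 0.0954 and 0.0848) or replicate 1 of Abl.4 (adjusted p = 0.0567).

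The alleles of Mdm2 were unequal in Abl.2. There, 91 maternal and 152 paternal counts were found in replicate 1 and 94 and 174 in replicate 2, a mean maternal share of 0.363 ± 0.017 (SD, n = 2). The share was 0.552 ± 0.054 for Abl.3 and 0.567 ± 0.0041 for Abl.4 (SD, n = 2), with 110 to 158 counts per library. Both libraries of Abl.2 were below 0.5 and the other 4 above it. The log2 allele ratio in Abl.2 was -0.81 ± 0.24 (SE, adjusted p = 0.0157, edgeR). It differed from Abl.3 by -1.11 ± 0.35 (SE, adjusted p = 0.0388, edgeR) and from Abl.4 by -1.20 ± 0.35 (SE, adjusted p = 0.0293, edgeR).

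At this depth the allelic calls for Mdm2 were weak. With DESeq2 the 3 adjusted p-values were 0.0714, 0.149 and 0.124. The imbalance in Abl.2 was lost without its replicate 1 or 2 (adjusted p = 0.106 and 0.181). The difference from Abl.3 was lost without replicate 1 or 2 of Abl.2 (adjusted p = 0.129 and 0.194) or of Abl.3 (adjusted p = 0.0571 and 0.181). The difference from Abl.4 was lost without replicate 1 or 2 of Abl.2 (adjusted p = 0.114 and 0.176) or of Abl.4 (adjusted p = 0.0848 and 0.0952). The direction was the same in each of these fits.

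The maternal share of Mdm2 in Abl.2 was close to the median of its chromosome. The median maternal share of the 431 tested genes of chromosome 10 was 0.337 for Abl.2, 0.504 for Abl.3 and 0.503 for Abl.4. Within 5 Mb of Mdm2, 18 of 22 genes had a share between 0.25 and 0.45 in Abl.2. Mdm1, a microtubule-binding protein gene 431053 bases away, was at 0.401 ± 0.0088, 0.524 ± 0.017 and 0.589 ± 0.030 in the order of lines (SD, n = 2). Cpm, a membrane carboxypeptidase gene 1523 bases from Mdm2, was mostly maternal in each line, at 0.824, 0.888 and 0.843. The median log2 abundance difference of the 511 genes of chromosome 10 was 0.59 for Abl.2 over Abl.3 and 0.44 for Abl.2 over Abl.4, against 0.08 and -0.04 for 9300 genes on the autosomes other than 4 and 10. The difference of Mdm2 was above that median for Abl.2 over Abl.3 (0.88) and slightly below it for Abl.2 over Abl.4 (0.37). Assigned by share, the paternal allele of Mdm2 carried 46.0 ± 1.01 TPM for Abl.2, 17.3 ± 0.89 for Abl.3 and 24.1 ± 0.35 for Abl.4 (SD, n = 2). The maternal allele carried 26.2 ± 1.33, 21.5 ± 3.62 and 31.5 ± 0.98 TPM. The number of copies of chromosome 10 was not measured here, and its part in these values was not tested.

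Mdm4 (ENSMUSG00000054387, minus strand of chromosome 1, 132959484 to 133030561) was at 18.74 and 20.72 TPM in Abl.2, 14.10 and 16.22 TPM in Abl.3, and 13.91 and 19.71 TPM in Abl.4. The libraries of Abl.4 spanned those of Abl.3. No pair was called (adjusted p = 0.146, 0.335 and 0.604, limma), and the smallest unadjusted p was 0.0798. Blocked by replicate number, Abl.2 over Abl.3 was called at 0.36 (adjusted p = 0.0484, limma). The sign of the difference between Abl.3 and Abl.4 changed with quantile normalisation, from -0.12 to 0.15. Its maternal share was 0.446 ± 0.057 for Abl.2, 0.410 ± 0.064 for Abl.3 and 0.512 ± 0.021 for Abl.4 (SD, n = 2). The imbalance in Abl.3 was called at a log2 ratio of -0.53 ± 0.17 (SE, adjusted p = 0.0302, edgeR). It was lost without replicate 1 of Abl.3 (-0.26, adjusted p = 0.431) and with DESeq2 (adjusted p = 0.0846), and was -0.80 without replicate 2 of Abl.3. The imbalance in Abl.2 was called only with the null at the allele totals of each library (-0.44, adjusted p = 0.0402, edgeR). The median share of chromosome 1 in Abl.3 was 0.447. Mdm4 overlaps Gm29257, and without strand information reads of the pair cannot be told apart.

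Cdkn1a (ENSMUSG00000023067, plus strand of chromosome 17, 29090976 to 29100727) encodes p21, an inhibitor of cyclin-dependent kinases and the best known p53 target. The bases before its upstream RefSeq start are shown because this window held the only pair of exactly matching p53 half-sites found before a start of the 9 genes. They are from build GRCm38.p6, plus strand, and capitals mark the half-sites.
Cdkn1a, chr17:29090729-29090975: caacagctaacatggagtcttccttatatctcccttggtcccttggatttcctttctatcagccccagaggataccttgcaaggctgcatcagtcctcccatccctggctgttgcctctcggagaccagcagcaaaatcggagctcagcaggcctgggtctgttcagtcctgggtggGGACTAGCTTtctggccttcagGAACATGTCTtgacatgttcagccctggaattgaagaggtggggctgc
The half-sites GGACTAGCTT and GAACATGTCT match the consensus p53 half-site of 10 bases, searched on both strands. They lie 12 bases apart, with 41 bases between the pair and the start. Only exact matches were marked. The 10 bases directly after the second half-site, tgacatgttc, differ from the consensus in their first base alone. The marked pair and its spacer therefore need not be the element that p53 binds. A half-site was found in 7.13% of the 32851 windows of 250 bases, and a pair with a spacer of up to 13 bases in 0.0639%, or 21 windows. Of the 14 windows of the 9 genes, 5 held a half-site, 1 each for Bax, Ccng1, Cdkn1a, Mdm2 and Trp53. A match is a description of the letters and not evidence of binding.

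Cdkn1a was at 177.02 and 160.73 TPM in Abl.2, 332.20 and 357.84 TPM in Abl.3, and 120.06 and 92.13 TPM in Abl.4. Abl.3 was highest and Abl.4 lowest, with no overlap between lines. The log2 difference was -1.03 ± 0.13 for Abl.2 over Abl.3 (SE, adjusted p = 0.00170, limma) and 1.70 ± 0.13 for Abl.3 over Abl.4 (SE, adjusted p = 0.000255, limma). Both were called in each alternative run. Abl.2 over Abl.4 was 0.68 ± 0.13 (SE, adjusted p = 0.00988, limma), and was not called without replicate 1 of Abl.2 (0.61, adjusted p = 0.0786). The order of the lines in Cdkn1a differed from that in Trp53, which was highest in Abl.2.

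The maternal allele of Cdkn1a gave more counts in all 3 clones. Its share was 0.675 ± 0.0072 for Abl.2, 0.713 ± 0.0059 for Abl.3 and 0.643 ± 0.044 for Abl.4 (SD, n = 2), over 2472 to 9036 counts per library. The log2 allele ratio was 1.05 ± 0.078, 1.31 ± 0.077 and 0.85 ± 0.083 in that order (SE, adjusted p = 8.14e-07, 2.53e-07 and 1.69e-05, edgeR), and each was called in each alternative run. The median share of chromosome 17 was 0.502 for Abl.2, 0.548 for Abl.3 and 0.500 for Abl.4. Abl.3 and Abl.4 differed by 0.47 ± 0.11 in the log2 ratio (SE, adjusted p = 0.0170, edgeR). That call was lost without replicate 1 or 2 of Abl.3 (adjusted p = 0.0755 and 0.115) or replicate 1 of Abl.4 (0.26, adjusted p = 0.0907). Abl.2 differed from Abl.3 by -0.26 ± 0.11 and from Abl.4 by 0.21 ± 0.11, and neither was called (SE, adjusted p = 0.117 and 0.278, edgeR). The former was called with the null at allele totals (-0.37, adjusted p = 0.0262) and without replicate 1 or 2 of Abl.4 (adjusted p = 0.0152 and 0.0142). The latter rested on the libraries of Abl.4: it was called without replicate 2 (0.40, adjusted p = 0.00668) and was 0.0046 without replicate 1 (adjusted p = 0.997). Assigned by share, the maternal allele carried 114.1 ± 8.98, 246.0 ± 14.9 and 67.8 ± 8.0 TPM and the paternal allele 54.8 ± 2.53, 99.0 ± 3.18 and 38.3 ± 11.8 TPM (SD, n = 2). Both alleles were thus highest in Abl.3. The gene overlaps AC167363.2, and its reads cannot be told apart without strand information.

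Bax (ENSMUSG00000003873, minus strand of chromosome 7, 45461697 to 45466898), which permeabilises mitochondria during cell death, had the same order of lines as Cdkn1a. It was at 249.14 and 241.38 TPM in Abl.2, 321.04 and 320.87 TPM in Abl.3, and 208.97 and 186.92 TPM in Abl.4. The lines did not overlap. Abl.3 over Abl.4 was 0.70 ± 0.079 (SE, adjusted p = 0.00113, limma) and was called in each alternative run. Abl.2 over Abl.3 was -0.39 ± 0.079 (SE, adjusted p = 0.00979, limma). It was not called without replicate 1 or 2 of Abl.2 (adjusted p = 0.0521 and 0.0694) or of Abl.3 (adjusted p = 0.0550 and 0.0572), and it was -0.65 with summed allelic counts (adjusted p = 0.000321). Abl.2 over Abl.4 was 0.31 ± 0.079 (SE, adjusted p = 0.0256, limma). It was not called without replicate 1 or 2 of Abl.2 (adjusted p = 0.138 and 0.0942), replicate 1 or 2 of Abl.3 (adjusted p = 0.0545 and 0.0543) or replicate 2 of Abl.4 (adjusted p = 0.0736), nor with summed allelic counts (0.24, adjusted p = 0.0772).

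The maternal share of Bax was 0.563 ± 0.023, 0.599 ± 0.00098 and 0.537 ± 0.025 in Abl.2, Abl.3 and Abl.4 (SD, n = 2). Imbalance was called in Abl.2 (log2 ratio 0.36 ± 0.088 SE, adjusted p = 0.00553, edgeR) and Abl.3 (0.58 ± 0.087 SE, adjusted p = 0.000318, edgeR), and not in Abl.4 (0.21 ± 0.091 SE, adjusted p = 0.0947, edgeR), where the ratio was 0.11 without its replicate 1 and 0.32 without its replicate 2. No difference between lines was called, and the smallest adjusted p of the 3 was 0.0778. The call in Abl.2 was lost without its replicate 1 (0.27, adjusted p = 0.137). Bax overlaps Gm45808, so the same limit of strand applies.

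Bbc3 (ENSMUSG00000002083, plus strand of chromosome 7, 16308393 to 16318205) encodes Puma, which releases Bax from its inhibitors. It was at 17.26 and 13.80 TPM in Abl.2, 25.77 and 27.28 TPM in Abl.3, and 19.76 and 12.86 TPM in Abl.4. Abl.3 was highest, and the libraries of Abl.4 spanned those of Abl.2. Abl.2 over Abl.3 was -0.74 ± 0.21 (SE, adjusted p = 0.0293, limma) and Abl.3 over Abl.4 was 0.70 ± 0.21 (SE, adjusted p = 0.0374, limma). Without a filter on low values they were not called (adjusted p = 0.0789 and 0.0901), nor with summed allelic counts (-1.75, adjusted p = 0.129, and 0.95, adjusted p = 0.403). The first was lost without replicate 1 or 2 of Abl.2 (adjusted p = 0.0665 and 0.166) or of Abl.3 (adjusted p = 0.104 and 0.136). The second was lost without replicate 1 or 2 of Abl.2 (adjusted p = 0.0628 and 0.0623), replicate 1 or 2 of Abl.3 (adjusted p = 0.125 and 0.155) or replicate 2 of Abl.4 (0.41, adjusted p = 0.131). Abl.2 over Abl.4 was -0.05 ± 0.21 (SE, adjusted p = 0.886, limma), and its sign changed with quantile normalisation (0.041).

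Ccng1 (ENSMUSG00000020326, minus strand of chromosome 11, 40748552 to 40755311), a cyclin G gene induced by p53, differed least between the clones. It was at 37.55 and 45.13 TPM in Abl.2, 39.20 and 44.48 TPM in Abl.3, and 37.11 and 41.78 TPM in Abl.4. The libraries of all lines overlapped, and no pair was called (adjusted p = 0.911, 0.733 and 0.633, limma). With an SE of 0.13 on the log2 scale, a modest difference was not detectable. With summed allelic counts, Abl.3 over Abl.4 was called at 0.36 (adjusted p = 0.0223). The maternal share was 0.550 ± 0.013, 0.533 ± 0.0085 and 0.550 ± 0.041 (SD, n = 2). Imbalance was called in Abl.2 and Abl.4 at a log2 ratio of 0.29 each (adjusted p = 0.0268 and 0.0357, edgeR). With DESeq2 neither was called (adjusted p = 0.0754 and 0.0942). The call in Abl.2 was also lost with the null at allele totals (0.17, adjusted p = 0.159). It was lost without its replicate 1 or 2 (adjusted p = 0.0874 and 0.264). The call in Abl.4 was lost without its replicate 2 (0.13, adjusted p = 0.482), replicate 2 of Abl.2 (adjusted p = 0.0501) or replicate 1 or 2 of Abl.3 (adjusted p = 0.0525 and 0.0535), and the ratio was 0.46 without replicate 1 of Abl.4.

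The authors' deposited table of allelic imbalance, which averages the replicates, gave a maternal fraction of 0.22 with limits of 0.12 and 0.34 for Cdkn2b in Abl.3. For Cdkn2a in Abl.3 the authors' deposited table gave 0.67 with limits of 0.44 and 0.86, which include 0.5. For Mdm2 in Abl.2 the authors' deposited table gave 0.36 with limits of 0.20 and 0.54, which also include 0.5. For Cdkn1a the lower limits of the authors' deposited table were 0.64, 0.68 and 0.57 in Abl.2, Abl.3 and Abl.4. The table gives no value for Cdkn2a in Abl.4 and does not state the level of its limits.

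Other p53 targets moved in both directions. Of a list of 40, 33 reached a mean of 1 TPM. This list and those of regulators and partners below were chosen with earlier results of these data known. Their shares beside those of all genes are therefore descriptions. Against Abl.3, 9 of the 33 were higher in Abl.2, 11 were lower and 13 were not called. Against Abl.4, 6 were higher in Abl.2, 9 were lower and 18 were not called. Abl.3 had 13 higher than Abl.4, 9 lower and 11 not called. In the order of the pairs, 27.3%, 18.2% and 39.4% of the targets were thus higher in the first line, against 25.9%, 15% and 11.3% of all genes. The share that was lower was 33.3%, 27.3% and 27.3%, against 14%, 18.4% and 26.8%. Without 1 library the 11 became 7 (replicate 2 of Abl.2 or replicate 1 of Abl.3), the 13 became 8 (replicate 1 of Abl.3) and the last 9 became 5 (replicate 2 of Abl.3). The medians of the list were -0.17, -0.01 and -0.11, beside 0.10, -0.03 and -0.15 for all genes tested.

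Phlda3 and Epha2 were highest in Abl.3, as Cdkn1a was. Phlda3, an inhibitor of Akt, was at 7.27 and 5.46 TPM in Abl.2, 40.31 and 36.72 TPM in Abl.3, and 10.15 and 8.94 TPM in Abl.4. Abl.2 over Abl.3 was -2.43 ± 0.15 (SE, adjusted p = 7.94e-05, limma). Epha2, a receptor tyrosine kinase, was at 2.33 and 2.06 TPM in Abl.2, 9.48 and 7.21 TPM in Abl.3, and 1.28 and 0.98 TPM in Abl.4. Abl.3 over Abl.4 was 2.13 ± 0.18 (SE, adjusted p = 0.000383, limma). Rprm, which arrests cells in G2, was listed at 0 in both libraries of Abl.2, at 2.96 and 2.98 TPM in Abl.3 and at 0.06 and 0 TPM in Abl.4. It reached a mean of 1 TPM only through Abl.3, and without it the 11 targets lower in Abl.2 than in Abl.3 are 10 and the 13 higher in Abl.3 than in Abl.4 are 12. In contrast, Ephx1, an epoxide hydrolase, was highest in Abl.2, at 50.7 ± 0.42 TPM against 17.4 ± 0.45 in Abl.3 and 20.7 ± 1.03 in Abl.4 (SD, n = 2, adjusted p = 7.04e-05 and 0.000145, limma). Trp53inp1, a p53 cofactor, was also higher in Abl.2 than in Abl.3, by 1.38 ± 0.30 (SE, adjusted p = 0.0115, limma).

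Pmaip1 and Fas, which promote cell death, had their lowest mean in Abl.2 and their highest in Abl.4. Pmaip1, which encodes Noxa, was at 0.27 and 0.55 TPM in Abl.2, 3.59 and 4.62 TPM in Abl.3, and 4.90 and 7.47 TPM in Abl.4. Abl.2 over Abl.4 was -2.33 ± 0.23 (SE, adjusted p = 0.000623, limma). Fas, the death receptor, was at 2.23 and 1.98 TPM in Abl.2, 2.95 and 2.81 TPM in Abl.3, and 4.90 and 7.89 TPM in Abl.4. The difference was -1.22 ± 0.22 for Abl.2 over Abl.4 (SE, adjusted p = 0.00660, limma) and -0.90 ± 0.22 for Abl.3 over Abl.4 (SE, adjusted p = 0.0190, limma). Pml, the nuclear body protein, was at 45.0 ± 1.58 TPM in Abl.3 against 90.2 ± 5.15 in Abl.4 (SD, n = 2, adjusted p = 0.000304, limma). Plk3, a stress kinase, was at 34.1 ± 1.57 TPM in Abl.2 against 14.6 ± 3.86 in Abl.4 (SD, n = 2, adjusted p = 0.00273, limma).

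**Figure D5:**
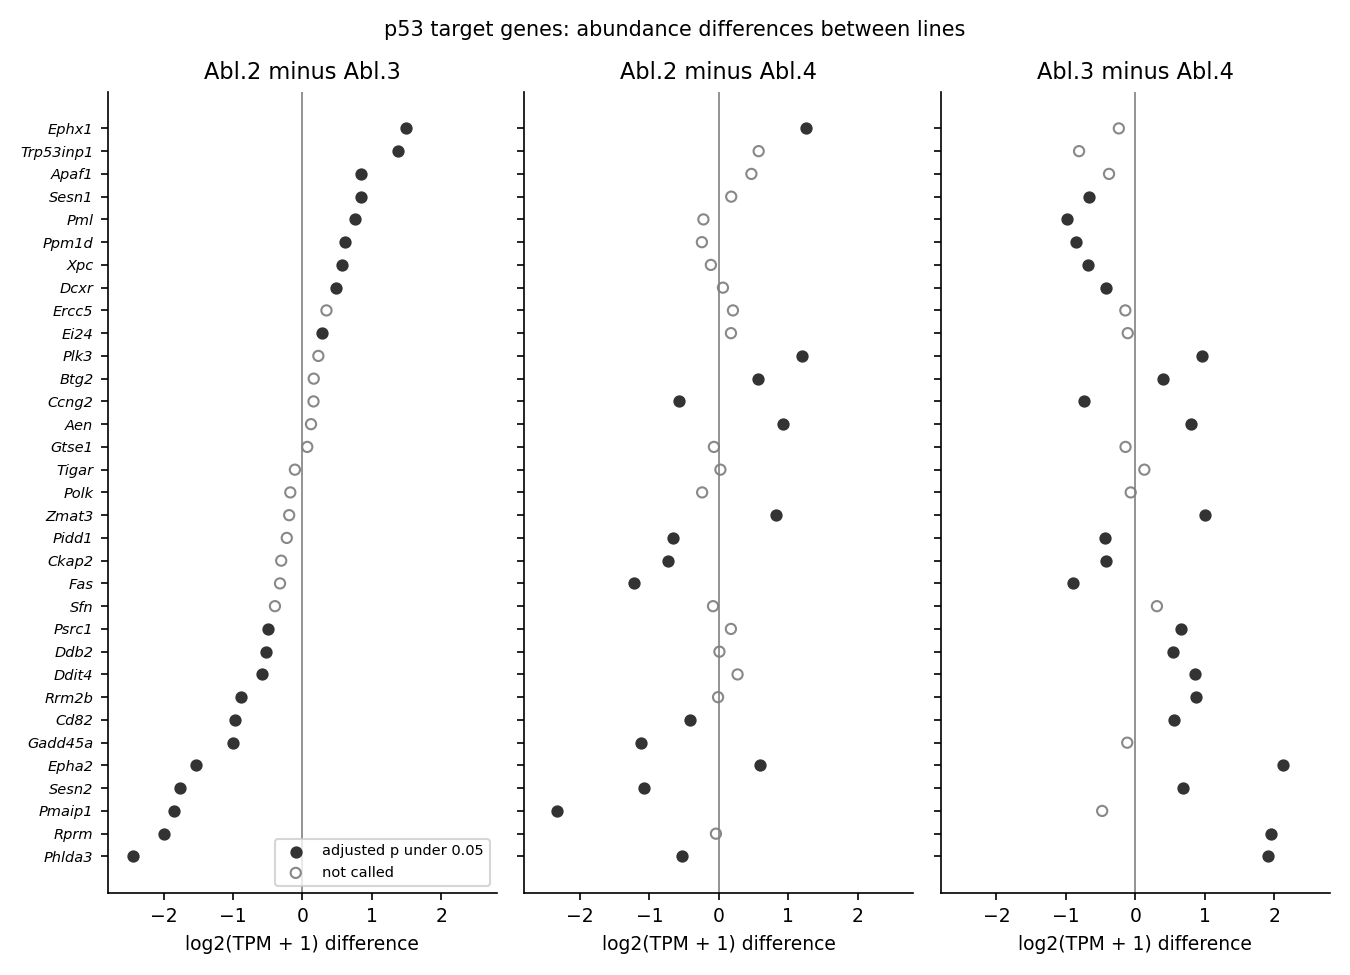
Difference in log2(TPM + 1) (horizontal axes) of the 33 further p53 targets for the 3 pairs of lines, ordered by the first pair. Filled points have an adjusted p under 0.05 and open points do not. Both signs are present in each pair, with 9, 6 and 13 genes called higher in the first line and 11, 9 and 9 lower.

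Of 28 targets with enough allelic counts, 12, 15 and 10 had a called allelic difference in the order of the pairs. These were 42.9%, 53.6% and 35.7% of them, against 28.4%, 22.3% and 16.5% of all genes. The list includes genes on chromosomes 4 and 10, whose median maternal shares in Abl.2 were 0.998 and 0.337. In the pairs with Abl.2, a trait of p53 targets thus cannot be told apart from these chromosome-wide shares. No count without these chromosomes was made. For Phlda3 no maternal count was found in Abl.2, and the maternal share was 0.298 for Abl.3 and 0.697 for Abl.4. Abl.4 differed from Abl.2 (adjusted p = 3.80e-08, edgeR) and from Abl.3 (adjusted p = 2.04e-05, edgeR). Sesn2 and Plk3, both on chromosome 4, were at 0.996 and 1 in Abl.2, as was most of that chromosome, and at 0.382 and 0.397 in Abl.3 (adjusted p = 7.18e-12 and 3.61e-07, edgeR). Sesn2 was at 0.396 in Abl.4 (adjusted p = 1.30e-11 against Abl.2, edgeR). Epha2 was at 0.788 in Abl.3 and 0.456 in Abl.4 (adjusted p = 0.000107, edgeR).

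Among 29 regulators of p53 and Arf, 24 were tested for abundance. Abl.2 had 8 higher and 3 lower than Abl.3, and 4 higher and 1 lower than Abl.4. Abl.3 had 3 higher and 6 lower than Abl.4. The shares of 33.3%, 16.7% and 12.5% higher in the first line were near the 25.9%, 15% and 11.3% of all genes, and those lower were 12.5%, 4.17% and 25.0% against 14%, 18.4% and 26.8%. Blocked by replicate number, the regulators lower in Abl.2 than in Abl.4 were 4 in place of 1. These counts rested on single libraries. The 8 became 4 without either replicate of Abl.2 and 5 without replicate 2 of Abl.3, and the first 3 became 0 without any of these 3 libraries. The 4 became 2 without replicate 1 of Abl.2 and 1 without any other library, and the 1 became 2 without either replicate of Abl.3 and 3 without replicate 1 of Abl.4. The last 3 became 0 without replicate 1 of Abl.3 and 1 without any other library but replicate 2 of Abl.4, and the 6 became 3 without replicate 2 of Abl.3. Their medians were 0.24, 0.02 and -0.20. Bmi1, a Polycomb protein known to repress Cdkn2a, was at 33.64 and 34.07 TPM in Abl.2, 14.47 and 19.76 TPM in Abl.3, and 38.72 and 60.21 TPM in Abl.4. It was higher in Abl.2 than in Abl.3 by 0.96 ± 0.23 (SE, adjusted p = 0.0164, limma), and Abl.3 over Abl.4 was -1.46 ± 0.23 (SE, adjusted p = 0.00390, limma). Trp53bp1, a DNA break sensor, was highest in Abl.2, at 29.6 ± 3.15 TPM against 14.7 ± 1.41 in Abl.3 and 16.5 ± 0.35 in Abl.4 (SD, n = 2, adjusted p = 0.00140 and 0.00322, limma). Usp7, which removes ubiquitin from p53 and Mdm2, was at 72.9 ± 13.7 TPM in Abl.2 and 48.9 ± 7.64 in Abl.4 (SD, n = 2, adjusted p = 0.0357, limma).

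Other regulators were highest in Abl.3 or Abl.4. Chek2, a DNA damage kinase, was at 7.53 and 8.46 TPM in Abl.2, 10.91 and 10.32 TPM in Abl.3, and 13.81 and 13.79 TPM in Abl.4. Abl.2 was lower in both of its pairs (adjusted p = 0.0414 and 0.00407, limma). Rpl5, a ribosomal protein that binds Mdm2 and whose gene has processed copies that could share its reads, was highest in Abl.3 at 381.4 ± 6.59 TPM, against 287.9 ± 9.56 in Abl.2 and 295.2 ± 27.7 in Abl.4 (SD, n = 2, adjusted p = 0.0111 and 0.0162, limma). Kat5, an acetylase of p53, was at 38.8 ± 5.89 TPM in Abl.3 and 28.6 ± 3.51 in Abl.4 (SD, n = 2, adjusted p = 0.0499, limma). Ppp1r13b, which directs p53 to death genes, was at 5.45 ± 1.10 TPM in Abl.3 and 11.5 ± 0.93 in Abl.4 (SD, n = 2, adjusted p = 0.00426, limma). Of 18 regulators with enough allelic counts, an allelic difference was called for 5, 2 and 4 in the order of the pairs, or 27.8%, 11.1% and 22.2%, against 28.4%, 22.3% and 16.5% of all genes. Huwe1, an X-linked ligase of p53, had a maternal share of 0.00155 for Abl.2, 0.998 for Abl.3 and 0.00128 for Abl.4. Abl.3 is labelled male, and a male has its only X from the mother. If the label holds, the share of Huwe1 in Abl.3 was fixed before the test, and the sex itself was not tested. Without Huwe1 the 5 and the last 4 are 4 and 3. Chek2 was at 0.546, 0.520 and 0.690, with Abl.4 called against both other lines (adjusted p = 0.0477 and 0.0307, edgeR). Ppp1r13b was at 0.526 in Abl.2 and 0.750 in Abl.3 (adjusted p = 0.000458, edgeR), and Trp53bp2, a p53-binding protein gene, at 0.458 in Abl.2 and 0.363 in Abl.4 (adjusted p = 0.0319, edgeR).

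All 12 partners of the Ink4 proteins were tested, that is, the other Cdk inhibitors, the D cyclins, their kinases and the Rb family. Abl.2 had 3 higher and 4 lower than Abl.3, and 2 higher and 8 lower than Abl.4, while Abl.3 had 3 higher and 4 lower than Abl.4. In the order of the pairs, 25.0%, 16.7% and 25.0% were higher in the first line, against 25.9%, 15% and 11.3% of all genes, and 33.3%, 66.7% and 33.3% were lower, against 14%, 18.4% and 26.8%. Without either replicate of Abl.2 the 8 became 4, and without replicate 2 of Abl.3 the last 4 became 2. The medians were -0.23, -0.66 and -0.21. The related inhibitors Cdkn2c and Cdkn2d were lowest in Abl.2. Cdkn2c was at 60.72 and 56.46 TPM in Abl.2, 146.92 and 145.20 TPM in Abl.3, and 157.42 and 139.86 TPM in Abl.4, and Abl.2 over Abl.3 was -1.30 ± 0.087 (SE, adjusted p = 0.000109, limma). Cdkn2d was at 120.16 and 113.68 TPM in Abl.2 and 271.61 and 243.94 TPM in Abl.3 (-1.13 ± 0.083 SE, adjusted p = 0.000158, limma). The kinases Cdk4 and Cdk6 were highest in Abl.2, with Cdk6 at 74.4 ± 0.46, 53.4 ± 0.79 and 32.9 ± 2.79 TPM (SD, n = 2) and each pair called (adjusted p = 0.00710, 0.000192 and 0.00193, limma). Cdk4, on chromosome 10, was at 1033 ± 5.17 TPM in Abl.2 and 689.1 ± 18.8 in Abl.4 (SD, n = 2, adjusted p = 0.00102, limma).

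Ccnd3 was the most abundant D cyclin among those named here, at 1988 ± 181.8 TPM in Abl.3 and 1307 ± 70.2 in Abl.4 (SD, n = 2, adjusted p = 0.00537, limma). Ccnd1 was at 0.36 ± 0.042, 0.57 ± 0.18 and 2.57 ± 0.54 TPM in the order of lines (SD, n = 2). Cdkn1c, which encodes the inhibitor p57, was at 0.095 ± 0.035 TPM in Abl.2 and 2.21 ± 1.29 in Abl.4 (SD, n = 2). Both reached a mean of 1 TPM only through Abl.4, so their difference from it is a description. Without them the 8 partners lower in Abl.2 than in Abl.4 are 6 and the 4 lower in Abl.3 than in Abl.4 are 3. Rb1, the retinoblastoma gene, was at 18.7 ± 3.97 TPM in Abl.3 and 43.5 ± 15.0 in Abl.4 (SD, n = 2, adjusted p = 0.0132, limma), and its relative Rbl2 was at 19.8 ± 2.12 TPM in Abl.2 and 11.6 ± 0.81 in Abl.3 (SD, n = 2, adjusted p = 0.00501, limma). Of 8 partners with enough allelic counts, 4, 3 and 2 had a called allelic difference in the order of the pairs. These were 50%, 37.5% and 25%, against 28.4%, 22.3% and 16.5% of all genes. In both pairs with Abl.2 the called partners include Cdkn2c on chromosome 4 and Cdk4 on chromosome 10. The median maternal shares of these chromosomes in Abl.2 were 0.998 and 0.337. Cdkn2c, on chromosome 4, had a maternal share of 0.999 for Abl.2, 0.559 for Abl.3 and 0.529 for Abl.4. Cdk4 was at 0.439, 0.598 and 0.579, so that, as for Mdm2, its share was lower in Abl.2 than in both other lines (adjusted p = 4.21e-06 and 1.64e-05, edgeR). Between Abl.3 and Abl.4, Rbl2 was at 0.435 and 0.578 and Cdk6 at 0.332 and 0.419 (adjusted p = 0.000137 and 0.0302, edgeR).

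The genes whose log2(TPM + 1) over the 6 libraries was most like that of a member were taken from the 8925 genes that reached a mean of 5 TPM. The correlations are descriptions over 6 libraries of 3 clones. For Trp53 they were Qtrt1, Sox4 and Map7d1, with Pearson r of 0.999, 0.998 and 0.995, and 177 genes were above 0.95. For Cdkn2a they were Heatr3, Atp5g1 and Arhgef39, each at an r of 0.995, among 137 genes above 0.95. For Cdkn1a the most alike gene was Bax, itself one of the 9, at 0.997, followed by Smdt1 at 0.996 and Cdpf1 at 0.995, among 124 genes above 0.95.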

How the data were processed

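RNA-seq libraries were made with the SMART-seq v4 kit, which marks no strand, from 10 ng of RNA, per the labels' protocols. The submitters' processing notes name STAR 2.5.4a, SAMtools, GATK and DESeq2, and builds GRCm38, GRCh37 and mm10, without roles. Of 35533 gene IDs, 98.4% had the same start in GENCODE M21 (GRCm38). The deposited abundances are TPM, for which the file headers name DESeq2. The allelic values are whole-number counts that the authors took at SNP positions within each gene, per the file headers. The imbalance table holds the maternal fraction with limits that the authors computed after averaging replicates, per the file headers. Which strain was the mother was not used. Counting by strand, the SNP list and the rule for reads over several SNPs are not given in the sources used here.

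Titles gave each sample's line and replicate number. For allelic counts, the quasi-likelihood test of edgeR 4.0.16 (R 4.3.3) was run on the 8702 of 19402 genes that had at least 20 counts in each library. The model had a term for each library and an allele term for each line, and library size was kept equal for the 2 alleles. For abundance, limma 3.58.1 was run with a mean-variance trend on log2(TPM + 1) of 11003 genes, a scale that understates changes of low genes. The design had left the abundance unit open, and its branch for normalised values was used. P-values were adjusted by Benjamini-Hochberg over all genes of a fit. Scripts were tested on simulated data. Intervals are 95% Wilson intervals, and a count of 0 was read as up to 3 counts.

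The 9 genes and the 3 further lists were chosen with earlier results of these data known. All 9 are named. From each list and pair, the 2 called genes with the largest rise, the 2 with the largest fall and the 2 with the largest allelic difference are named, with the nearest measured neighbours and the 3 genes most alike in abundance. Levels of some other lines are given for the genes so named.

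Alternatives were coverage minimums of 10 and 50 or a sum over libraries, DESeq2 1.42.0, a null at each library's allele totals, pseudocounts of 0.1 and 5, no filter or a mean of at least 5 TPM, quantile normalisation, summed allelic counts with edgeR, a replicate block, and leaving out each library. Replicate numbers name library preparations and no label says that they mark a shared batch. The deviations of libraries with the same number from their line means correlated at 0.10, 0.19 and 0.16 in abundance in the 3 pairs of lines, and at -0.01, -0.06 and 0.02 in maternal share. These correlations do not settle whether the numbers pair the libraries, and the main tests carry no replicate block. In abundance, the blocked value is given beside each result whose call it changed.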

Additional observations from a re-analysis of the deposited data

Results flagged for a closer look

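For 4 genes a difference in allelic effect between clones was called when the difference itself was tested with edgeR. Values are differences in the fitted log2 maternal to paternal ratio. For Mdm2 the ratio was lower in Abl.2, by -1.11 against Abl.3 (adjusted p = 0.0388) and -1.20 against Abl.4 (adjusted p = 0.0293). For Cdkn2a it was higher in Abl.2, by 7.17 against Abl.3 (adjusted p = 2.31e-05) and 8.72 against Abl.4 (adjusted p = 7.20e-06). For Cdkn2b it was higher in Abl.2 by 10.43 (adjusted p = 2.31e-09) and 9.08 (adjusted p = 3.52e-08), and lower in Abl.3 than in Abl.4 by -1.34 (adjusted p = 0.00910). For Cdkn1a it was higher in Abl.3 than in Abl.4 by 0.47 (adjusted p = 0.0170). The fitted sizes for Cdkn2a and Cdkn2b in Abl.2 rest on 0 to 2 paternal counts per library and depend on the prior count. The calls for Mdm2, for Cdkn1a and for Cdkn2b between Abl.3 and Abl.4 were each lost in some alternatives. In Abl.2 the median maternal share was 0.998 on chromosome 4, which holds Cdkn2a and Cdkn2b. It was 0.337 on chromosome 10, which holds Mdm2. The other values of these genes are in the report, and no cause was tested.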

How the results depend on the processing

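Of the 17 abundance calls for the 9 genes, 8 were kept in every alternative that could be run, as were 4 of the 8 calls of an allelic difference (Cdkn2a and Cdkn2b in both pairs with Abl.2) and 7 of the 13 imbalance calls. With DESeq2, 3 genes were called unbalanced in Abl.3 in place of 5, and 1 in Abl.4 in place of 2. With summed allelic counts, 3 genes were called in abundance between Abl.2 and Abl.3 in place of 5. Leaving out a library gave 3 to 6 unbalanced genes in Abl.2, 3 to 5 in Abl.3 and 1 to 2 in Abl.4, and 0 to 2 allelic differences between Abl.3 and Abl.4. For abundance it gave 2 to 5 genes in both pairs with Abl.2. Over all genes it gave 2466 to 4541 calls for Abl.2 against Abl.3, 1970 to 3296 for Abl.2 against Abl.4 and 2343 to 3691 for Abl.3 against Abl.4. The lowest came without replicate 2 of Abl.2, replicate 1 of Abl.2 and replicate 1 of Abl.3, and the full counts were 4382, 3682 and 4194.

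Results whose sign changed were not called. With the null at each library's allele totals, the log2 ratio of Trp53 in Abl.2 was -0.054, and the differences of Ccng1 (Abl.2 against Abl.3) and Trp53 (Abl.2 against Abl.4) were -0.014 and -0.012. Quantile normalisation gave 0.041 for Bbc3 (Abl.2 over Abl.4) and 0.15 for Mdm4 (Abl.3 over Abl.4), and summed counts gave 0.15 for Trp53 (Abl.3 over Abl.4). Leaving out a library moved abundance differences of Ccng1 from -0.15 to 0.11, -0.067 to 0.19 and -0.0064 to 0.17 in the order of the pairs. Bbc3 ranged from -0.34 to 0.25 and Mdm4 from -0.00025 to 0.47 for Abl.2 over Abl.4. For Abl.3 over Abl.4, Mdm4 ranged from -0.36 to 0.11 and Trp53 from -0.083 to 0.047. Allelic differences ranged from -0.066 to 0.47 for Mdm4 and -0.11 to 0.035 for Trp53 (Abl.2 against Abl.3), and from -0.17 to 0.16 for Ccng1 (Abl.2 against Abl.4). Between Abl.3 and Abl.4 they ranged from -0.27 to 0.067 for Ccng1 and -0.31 to 0.14 for Mdm2. The imbalance of Trp53 in Abl.2 ranged from -0.0080 to 0.14 and that of Mdm4 in Abl.4 from -0.018 to 0.16. Causes were not tested.

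The replicate block raised the abundance calls to 5213, 4608 and 5184 genes. With 2 libraries a line, any such pairing rests on a single contrast per line. In share the libraries had only a number in common. Under the block the abundance of Mdm4 was called between Abl.2 and Abl.3 (adjusted p = 0.0484) and the allelic difference of Mdm2 in that pair was not (adjusted p = 0.0594). No other call for the 9 genes changed with the block, and the regulators lower in Abl.2 than in Abl.4 rose from 1 to 4. Without a filter, 3 regulators lower in Abl.2 than in Abl.3 became 1, 4 higher in Abl.2 than in Abl.4 became 2 and 3 higher in Abl.3 than in Abl.4 became 1. A mean of at least 5 TPM took the targets lower in Abl.2 than in Abl.3 from 11 to 7. Quantile normalisation took the targets and regulators lower in Abl.3 than in Abl.4 from 9 to 5 and from 6 to 3, and the regulators lower in Abl.2 than in Abl.4 from 1 to 2. Summed counts took the partners lower in Abl.3 than in Abl.4 from 4 to 2, and gave 5 and 1 regulators higher and lower for Abl.2 against Abl.3, 1 and 2 for Abl.2 against Abl.4, and 1 and 4 for Abl.3 against Abl.4. Cdkn2a could not be tested at a coverage minimum of 50. Depth limits the shares of Cdkn2a, Cdkn2b and Mdm2 most, with 37 counts in the least covered library of Abl.4, and TPM carry no depth.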
